A study of Mus musculus with 20 samples.

Results

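The transforming growth factor beta (TGF-beta) genes described here are 10 genes of 1 signalling pathway: the ligands Tgfb1, Tgfb2 and Tgfb3, the receptors Tgfbr1, Tgfbr2 and Tgfbr3, the signal carriers Smad2 and Smad3, the inhibitor Smad7, and Tgfbi, a matrix protein induced by the pathway. They were chosen by gene symbol, without use of their values, from the 46744 rows of a table of gene expression in whole mouse skin, and each of the 10 had exactly 1 row. All 10 belong to the 12509 named genes whose average over the groups reached 1 FPKM, which served as the background. FPKM scales the fragments of a gene by its length and by the size of the library, so levels of different genes can be set side by side on this scale.

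The skin came from C57BL/6 mice, an inbred laboratory strain, in 6 groups with 20 samples in all. Control mice had the genotype Sod2+/+. There were 5 control samples aged 50 days, 2 aged 100 days, 3 aged 300 days and 4 aged 700 days. Mice with a conditional knockout (cKO) of Sod2, which encodes the mitochondrial superoxide dismutase, have the genotype Sod2-/- in the labels, with 3 samples at each of 100 and 300 days. The labels name neither a Cre driver nor the cells that lost the gene, and the series title links the study to JunB in fibroblasts and skin aging. The authors' table holds 1 FPKM per gene and group, so there is no replicate spread, no standard deviation and no test for any value below, and read depth is unknown. In whole skin, fewer cells of a type and less RNA per cell cannot be told apart.

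TGF-beta ligands are secreted in a latent complex and, once released, bring together the kinase receptors encoded by Tgfbr2 and Tgfbr1. The activated receptors phosphorylate Smad2 and Smad3, which enter the nucleus with Smad4 and regulate genes of matrix, growth arrest and differentiation. Smad7 is itself induced by the pathway and blocks the receptors, while Tgfbr3 (betaglycan) is a co-receptor that presents ligand, above all the Tgfb2 product. In skin the pathway restrains keratinocyte growth, stimulates collagen production by fibroblasts and takes part in the regression phase of the hair cycle.

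Start-site sequences are shown for Tgfb1 and Tgfb2, the ligands with the highest and the next-highest mean level, and for Tgfbi, the member with the highest level in every group. Each runs from 250 bases before to 50 bases after the gene start in RefSeq (build GRCm38.p6), 5′ to 3′ on the strand of the gene. Tgfb1 lies at chr7:25686752-25687051 on the plus strand, Tgfb2 at chr1:186705940-186706239 on the minus strand and Tgfbi at chr13:56609336-56609635 on the plus strand. Capitals mark matches, on either strand, to the TATA box (TATAAA), the GC box bound by Sp1 (letters GGGCGG), the short Smad-binding motif (letters CAGAC) and the AP-1 motif (letters TGANTCA), and no marked matches overlap.
Tgfb1: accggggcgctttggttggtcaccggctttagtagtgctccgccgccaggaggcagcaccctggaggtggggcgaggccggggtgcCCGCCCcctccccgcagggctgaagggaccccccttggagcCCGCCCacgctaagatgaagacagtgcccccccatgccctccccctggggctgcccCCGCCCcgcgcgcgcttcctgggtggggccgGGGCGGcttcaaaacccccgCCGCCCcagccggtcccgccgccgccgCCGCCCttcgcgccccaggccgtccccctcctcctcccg
Tgfb2: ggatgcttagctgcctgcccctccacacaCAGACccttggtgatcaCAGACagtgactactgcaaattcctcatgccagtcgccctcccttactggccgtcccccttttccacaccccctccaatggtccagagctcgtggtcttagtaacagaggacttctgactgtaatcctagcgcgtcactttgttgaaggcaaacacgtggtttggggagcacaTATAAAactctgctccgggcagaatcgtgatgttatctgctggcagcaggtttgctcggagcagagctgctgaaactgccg
Tgfbi: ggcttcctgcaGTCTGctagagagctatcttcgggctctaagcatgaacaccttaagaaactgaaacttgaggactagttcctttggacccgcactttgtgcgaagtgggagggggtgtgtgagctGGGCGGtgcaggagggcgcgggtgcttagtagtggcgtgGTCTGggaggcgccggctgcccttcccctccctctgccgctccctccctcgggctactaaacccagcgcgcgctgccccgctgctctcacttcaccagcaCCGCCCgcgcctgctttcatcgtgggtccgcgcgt

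The ligand promoters differed in makeup. The Tgfb1 window was 77.0% G and C and held 6 GC boxes, with no TATA box and no Smad motif. The Tgfb2 window was 54.3% G and C and held a TATA box 31 bases before the start, 2 Smad motifs and no GC box. The Tgfbi window was 63.3% G and C, with 2 GC boxes and 2 Smad motifs. Of 32851 promoter windows of the same length, 35.7% held the GC box, 13.6% the TATA box, 49.6% the Smad motif and 7.81% the AP-1 motif, and their median G and C content was 52.7%. RefSeq windows were matched for 6 members (7 windows, since Tgfbr1 has 2), and none of these 7 holds the AP-1 letters. Smad2 and Smad7 were set aside before matching, and their windows and positions are not reported here. These matches describe letters in a short window and are not evidence of binding.

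In the GENCODE M21 annotation of GRCm38 (mm10), the build the submitters' processing notes name, Tgfb1 spans positions 25687002 to 25705077 of chromosome 7 on the plus strand. Tgfb2 spans 186622792 to 186705989 of chromosome 1 and Tgfb3 86056745 to 86079041 of chromosome 12, both on the minus strand. Tgfbr1 spans 47353222 to 47414931 of chromosome 4, Tgfbr2 116084293 to 116175360 of chromosome 9 and Tgfbr3 107106570 to 107289629 of chromosome 5. Smad3 spans 63646767 to 63757994 of chromosome 9 and Tgfbi 56609523 to 56639562 of chromosome 13. The Tgfb3 span overlaps Ttll5, a protein-coding gene on the opposite strand, and Tgfb2 overlaps an antisense transcript. The row that holds Tgfbr3 also carries Gm43422, a predicted transcript inside its span on the same strand, so its value covers both. No source used here states whether the counting used strand, so reads from overlapping genes cannot be told apart.

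Tgfbi stood above the other members in each of the 6 groups. Its level was 135 FPKM in 50-day and 140 FPKM in 700-day control skin, against 32.0 FPKM in 100-day control, 62.1 in 100-day cKO, 44.3 in 300-day control and 55.4 in 300-day cKO skin. Smad2 ranked next to Tgfbi in 3 groups, the 50-day and 700-day controls and the 300-day cKO, and lay between 22.1 FPKM in 100-day controls and 33.7 FPKM in 50-day controls. Tgfbr3, between 17.7 and 31.7 FPKM, and Tgfbr2, between 16.2 and 26.1 FPKM, lay above Tgfbr1, between 9.44 and 15.0 FPKM, in every group. Each ligand lay below each receptor in every group. Tgfb1, the main ligand of most tissues, lay between 7.71 and 13.3 FPKM, Tgfb2 between 4.55 and 7.61 FPKM, and Tgfb3 between 1.99 and 7.45 FPKM. Tgfb3 was the lowest member in 5 groups and Tgfb2 in the sixth, the 100-day controls. With no spread between samples, neighbours in these orders cannot be said to differ.

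The members varied to unequal extents over the groups. Tgfbi, Smad7 and Tgfb3 had the widest ranges, with the highest group 4.37, 4.36 and 3.74 times the lowest, followed by Smad3 at 2.99 times. Smad2, Tgfbr1 and Tgfbr2 had the narrowest, at 1.52, 1.59 and 1.61 times. These ranges span samples whose titles start in different ways. Titles of the 50- and 700-day samples start with CO-Skin and those of the others with S2-Skin. Smad3 was 8.27 and 6.19 FPKM in the CO-Skin groups and 12.6 to 18.5 FPKM in the S2-Skin groups. Malat1, an abundant nuclear RNA, was listed at 0 in both CO-Skin groups and at 6080 to 6461 FPKM in the S2-Skin groups. Whether the prefixes stand for batches is not in the labels, so the ranges over all 6 groups mix prefix with age, and each comparison below stays within a prefix.

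**Figure D1:**
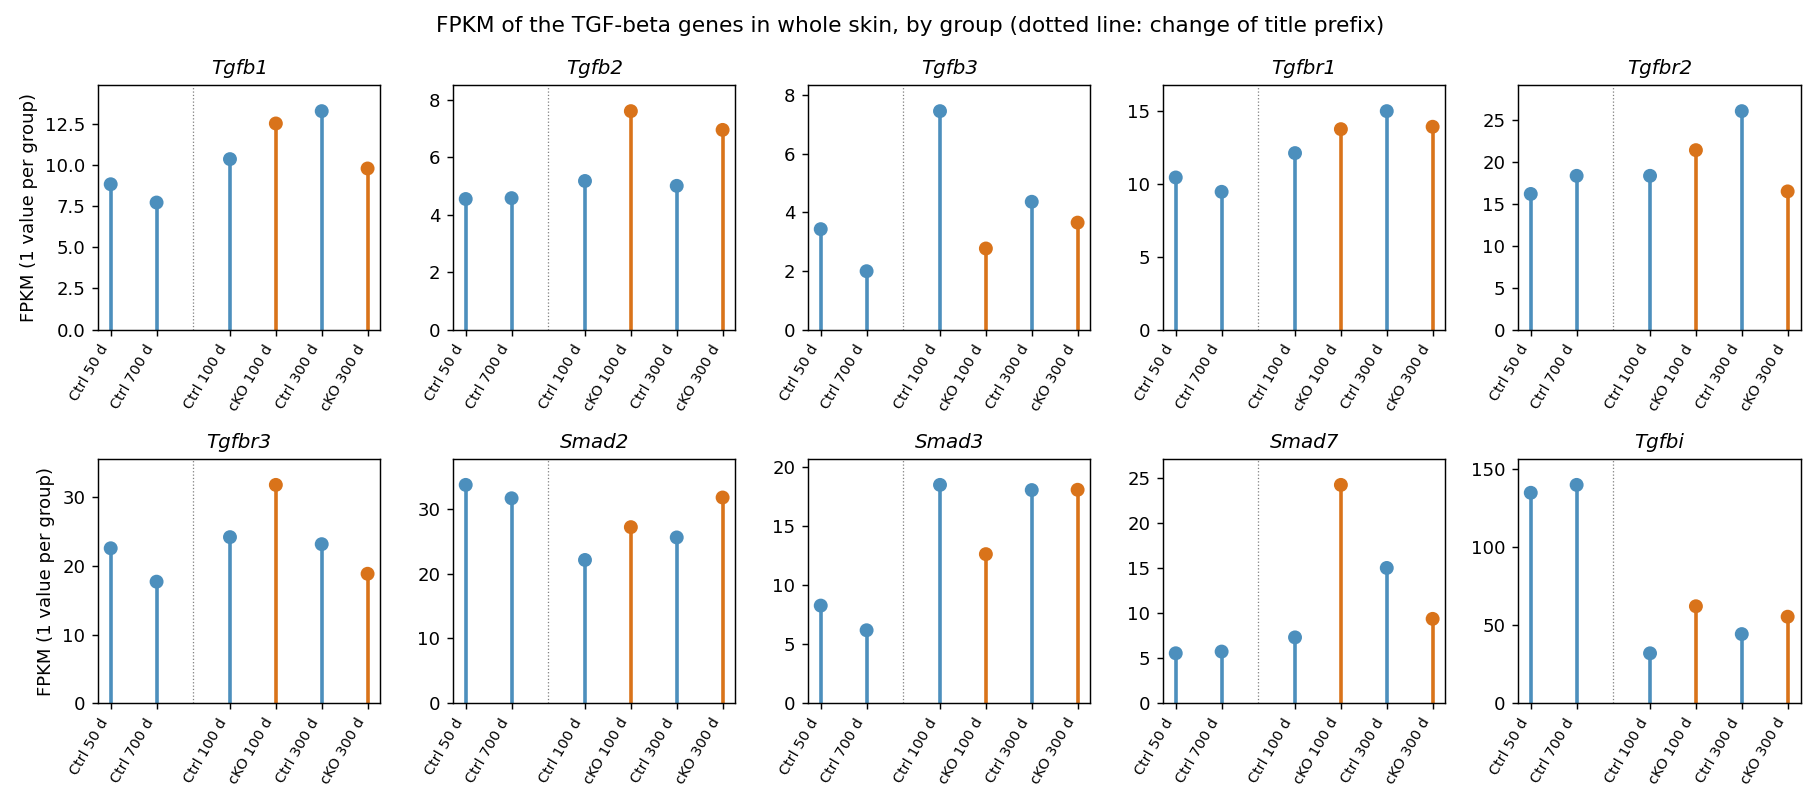
FPKM of each of the 10 genes (vertical axes, each starting at 0) in the 6 groups (horizontal axis), with control skin in blue and cKO skin in orange. Each point is the authors' single value for a group, so no error is drawn, and the dotted line separates the CO-Skin from the S2-Skin groups. Smad7 stands out at 24.2 FPKM in 100-day cKO skin and Tgfb3 at 7.45 FPKM in 100-day control skin.

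The groups compared also differed in other transcripts. Sod2 was 17.6 FPKM in cKO and 27.7 FPKM in control skin at 100 days, while the 300-day values were 16.8 and 23.5 FPKM. Junb, the gene of the series title, was 33.9 and 20.1 FPKM in cKO and control skin at 100 days, 26.2 and 24.5 FPKM at 300 days, and 30.2 and 27.8 FPKM in 700- and 50-day controls. Markers of keratinocytes (5 genes, summed level 2072 to 9637 FPKM) and fibroblasts (6 genes, 420 to 1509 FPKM) were present in every group, as the label of whole skin states. Of 4 genes on the Y chromosome, each had 14.7 to 45.1 FPKM in 700-day control skin and in cKO skin of both ages. Elsewhere each had at most 0.347 FPKM. Xist, on the X chromosome, ran the other way, at 2580, 1140 and 2187 FPKM in the 50-, 100- and 300-day controls. It was 3.69 FPKM in 700-day control, 4.92 FPKM in 100-day cKO and 17.2 FPKM in 300-day cKO skin. This sex-linked difference thus cannot be told apart from age or genotype in the 3 main comparisons.

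At 100 days, Smad7 and Tgfbi were higher in cKO than in control skin and Tgfb3 was lower. Changes are given as log2 ratios of (FPKM + 1), which understate the change of low genes, and a gene was counted at a ratio of 1.5-fold or of 2-fold on that scale. Smad7, the inhibitor of the receptors, was 24.2 FPKM in cKO and 7.31 FPKM in control skin, a log2 ratio of 1.60. That ratio was above 99.4% of the 12509 named genes and was the largest among the members in any of the 3 main comparisons. Tgfb3, the ligand best known from palate and epithelial development, was 2.76 FPKM in cKO against 7.45 FPKM in control skin, a log2 ratio of -1.17, with 3.14% of named genes below it. Tgfbi was 62.1 FPKM against 32.0 FPKM, a log2 ratio of 0.93, above 97.2% of named genes.

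The other 7 members stayed inside 1.5-fold at 100 days. Smad3 came closest, at 12.6 against 18.5 FPKM (log2 ratio -0.52), and Tgfb2 followed on the higher side, at 7.61 against 5.17 FPKM (0.48). Smad2, the partner of Smad3, was on the other side of 0 from it, at 27.2 against 22.1 FPKM (0.29). The receptors Tgfbr1, Tgfbr2 and Tgfbr3 had log2 ratios of 0.17, 0.21 and 0.38, and Tgfb1 of 0.25. In all, 8 of 10 members had a ratio above 0, with a median of 0.27 beside 0.02 over all named genes. By count, 2 of 10 members passed 1.5-fold upward, where 8.95% of named genes did, and 1 passed it downward, where 12.1% did. Past 2-fold were 2 members, Smad7 and Tgfb3, against 6.61% of named genes in either direction. With equal totals (TPM) 13160 named genes reached the filter in place of 12509, here and below, so such counts rest on unlike sets. Past 1.5-fold they split into 942 higher and 2305 lower, against 1120 and 1509 on the FPKM scale. Smad3 then joined the 3 members past 1.5-fold, at -0.65.

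Marker transcripts of other cell types also differed at 100 days. A list of 5 gland epithelium markers (Krt8, Krt18, Krt19, Wfdc2 and Aqp5) summed to 337 FPKM in control and 4.92 FPKM in cKO skin, with none at 0, and all 5 were lower past 2-fold. Adipocyte markers (5 genes) summed to 3433 and 946 FPKM, and all 5 were lower past 2-fold. Both lists and Tgfb3 were highest in the 100-day controls of the S2-Skin groups. A list of 10 genes of the hair shaft and its inner sheath, written after earlier results were known, summed to 1640 FPKM in control and 5336 FPKM in cKO skin, and 6 of its genes, among them Krt71 and Krt72 of the inner root sheath, were higher past 2-fold. Keratinocyte markers summed to 2072 FPKM in control and 2630 FPKM in cKO skin, but were not uniform. Krt5 (0.55), Krt14 (0.57) and Krt15 (0.72) were higher in cKO skin, while Krt1 (-0.50) and Krt10 (-0.26) were lower. The keratinocyte sums were 7852 and 9637 FPKM in the 50- and 700-day controls, where Tgfbi was highest. Those are CO-Skin groups, so setting them beside the 100-day groups mixes prefix with age. The part of these cells in the Tgfb3, Smad7 and Tgfbi values was not tested. The 100-day control value rests on 2 samples, whose separate values were not used here.

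At 300 days the pattern was another one, with Tgfbr2 and Smad7 lower in cKO skin and no member past 2-fold. Tgfbr2, the receptor that binds ligand first, was 16.5 FPKM in cKO and 26.1 FPKM in control skin, a log2 ratio of -0.63. Smad7 was 9.36 against 15.0 FPKM, also -0.63 and thus on the opposite side of 0 from its ratio at 100 days. Tgfb1 followed at 9.78 against 13.3 FPKM (-0.40). Tgfb2 was 6.95 against 5.00 FPKM (0.41), Smad2 31.7 against 25.6 FPKM (0.30) and Tgfbi 55.4 against 44.3 FPKM (0.32), each above 0 as at 100 days. Smad3 was 18.1 FPKM in both groups, and Tgfb3 (-0.21), Tgfbr1 (-0.10) and Tgfbr3 (-0.28) were closer to 0 than 1.5-fold.

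The counts at 300 days were set against genes at large in the same way. Upward, 0 of 10 members passed 1.5-fold beside 7.87% of named genes, and downward 2 did beside 12.2%. Past 2-fold were 0 members beside 7.15% of named genes. The members' median was -0.15 against -0.01 over all named genes. With groups rescaled to a common median Tgfbr2 (-0.59) still passed 1.5-fold and Smad7 (-0.58) did not. Macrophage markers (5 genes) summed to 115 FPKM in 300-day control and 50.4 FPKM in cKO skin, and T and B lymphocyte markers (5 genes) to 58.1 and 1.70 FPKM, while the lymphocyte sums of the other 4 groups lay between 1.90 and 5.27 FPKM, so the 300-day control stood apart. The B cell marker Ms4a1 was listed at 0 in 300-day cKO skin and also in 50- and 100-day control skin. Endothelial markers (5 genes) summed to 65.8 and 40.0 FPKM. Their part in the lower Tgfb1, Tgfbr2 and Smad7 values was not tested.

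**Figure D2:**
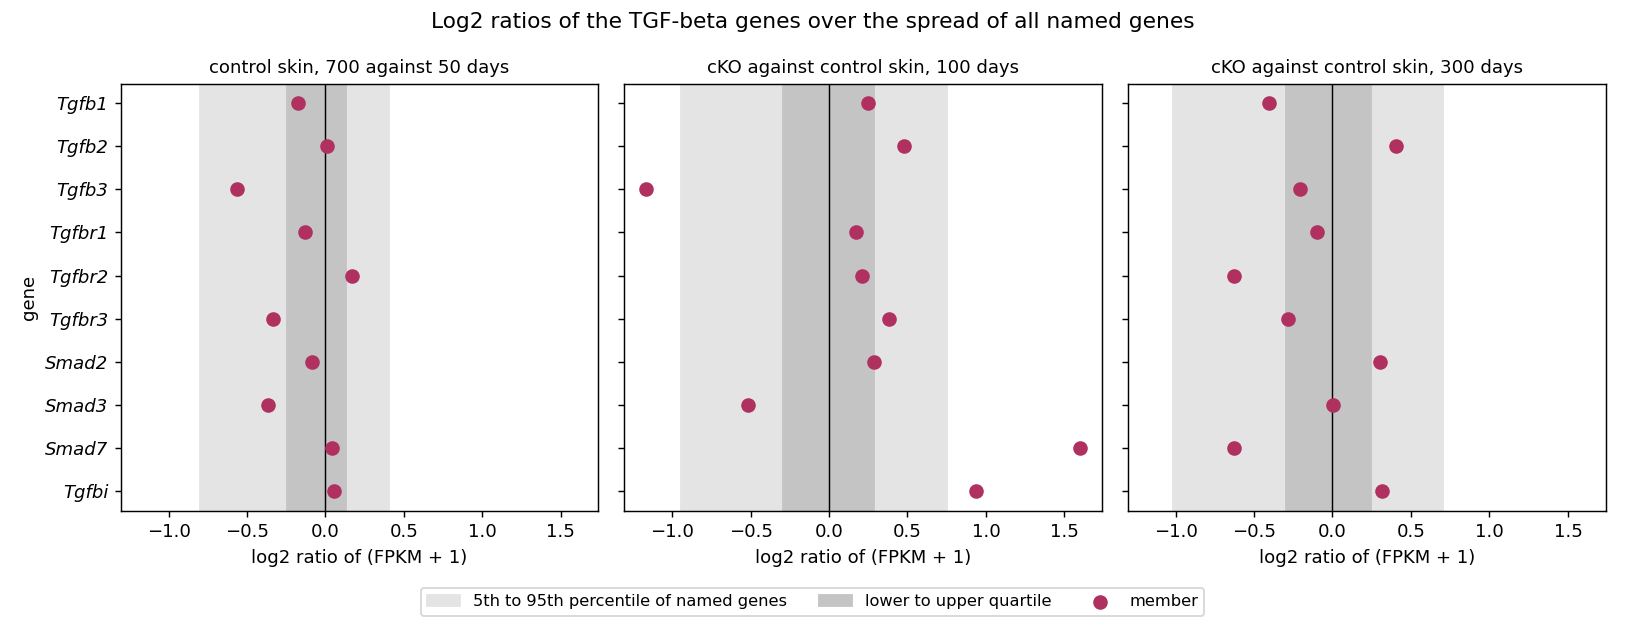
Log2 ratios of (FPKM + 1) of the 10 genes (points) in the 3 comparisons that share no samples, over grey bands that hold the 5th to 95th percentile (light) and the lower to upper quartile (dark) of 12509 named genes. Smad7 at 1.60, Tgfbi at 0.93 and Tgfb3 at -1.17 lie outside the light band in cKO skin at 100 days, and no member lies outside it in the other comparisons.

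Set side by side, the genotype ratios at 100 and 300 days had the same sign for Tgfb2 (0.48 and 0.41), Smad2 (0.29 and 0.30), Tgfbi (0.93 and 0.32) and Tgfb3 (-1.17 and -0.21). They had opposite signs for Tgfb1 (0.25 and -0.40), for all 3 receptors and for Smad7 (1.60 and -0.63). Smad3 was below 0 at 100 days (-0.52) and close to 0 at 300 days (0.00). The difference of the ratios, 300 minus 100 days, was -2.23 for Smad7, lower than for all but 0.919% of named genes. It was -0.84 for Tgfbr2, -0.66 for Tgfb1, -0.66 for Tgfbr3, -0.62 for Tgfbi and 0.96 for Tgfb3. In this difference 6 of 10 members passed 1.5-fold in either direction, beside 25.0% of named genes. With equal totals 4 did, since Tgfb1 (-0.57), Tgfbr3 (-0.56) and Tgfbi (-0.51) no longer passed and Smad3 (0.64) did. The median over the members was -0.44 and over all named genes -0.02. None of these differences has a test, since each group has 1 value.

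The same values read by age give the change within each genotype, with samples shared with the comparisons above. From 100 to 300 days in control skin, Smad7 went from 7.31 to 15.0 FPKM (log2 ratio 0.95) and Tgfb3 from 7.45 to 4.36 FPKM (-0.66). These 2 of 10 members passed 1.5-fold in either direction, beside 11.3% of named genes. With equal totals the split of all named genes past 1.5-fold was 813 higher and 1146 lower, against 947 and 472, and their median was -0.15 against 0.03. Between these 2 control groups the lymphocyte sum went from 2.07 to 58.1 FPKM and the macrophage sum from 61.2 to 115 FPKM. The gland epithelium sum went from 337 to 83.4 FPKM. The part of these cells in the Smad7 and Tgfb3 values was not tested, and the 100-day control value rests on 2 samples. In cKO skin Smad7 went the other way, from 24.2 to 9.36 FPKM (-1.28), and Tgfbr3 from 31.7 to 18.8 FPKM (-0.72). Here again 2 of 10 members passed 1.5-fold, beside 14.4% of named genes, which divided into 1074 higher and 730 lower, or 997 and 1210 with equal totals. In the 4 S2-Skin groups Smad7 thus ran in the order 100-day cKO, 300-day control, 300-day cKO and 100-day control, an order that follows neither genotype nor age alone. The summed hair list, written after earlier results were known, was also highest in 100-day cKO and lowest in 100-day control skin. At 300 days it ran the other way from Smad7, at 2406 FPKM in control and 2770 FPKM in cKO skin. Its part in the Smad7 level was not tested. The genes of the hair list did not all follow the sum. Among the S2-Skin groups Krt31, Krt33b, Krt35 and Krt36 were highest in 300-day cKO and lowest in 300-day control skin.

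Relative amounts within the family showed which isoforms made up each class. The 3 ligands summed to 23.0 FPKM in control and 22.9 FPKM in cKO skin at 100 days, while their makeup differed. Tgfb3 made up 32.4% of the ligand sum in control and 12.1% in cKO skin, Tgfb2 22.5% and 33.2%, and Tgfb1 45.1% and 54.7%. At 300 days the share of Tgfb2 was again higher in cKO skin, at 34.1% against 22.1%, while that of Tgfb1 was lower, at 48.0% against 58.6%. The share of Tgfb3 was 17.9% against 19.3%. A higher share of Tgfb2 in cKO than in control skin was thus seen at both ages.

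The receptors and Smads shifted less evenly. The 3 receptors summed to 54.6 FPKM in control and 66.9 FPKM in cKO skin at 100 days, and to 64.2 and 49.2 FPKM at 300 days. Tgfbr2 was 1.52 times the level of Tgfbr1 in control and 1.56 times in cKO skin at 100 days, and 1.74 and 1.19 times at 300 days. For the inhibitor against the signal carrier, Smad7 was 0.395 times the level of Smad3 in control and 1.92 times in cKO skin at 100 days. At 300 days the same ratio was 0.831 in control and 0.518 in cKO skin. Only in 100-day cKO skin, of the 6 groups, did the Smad7 level exceed that of Smad3.

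**Figure D3:**
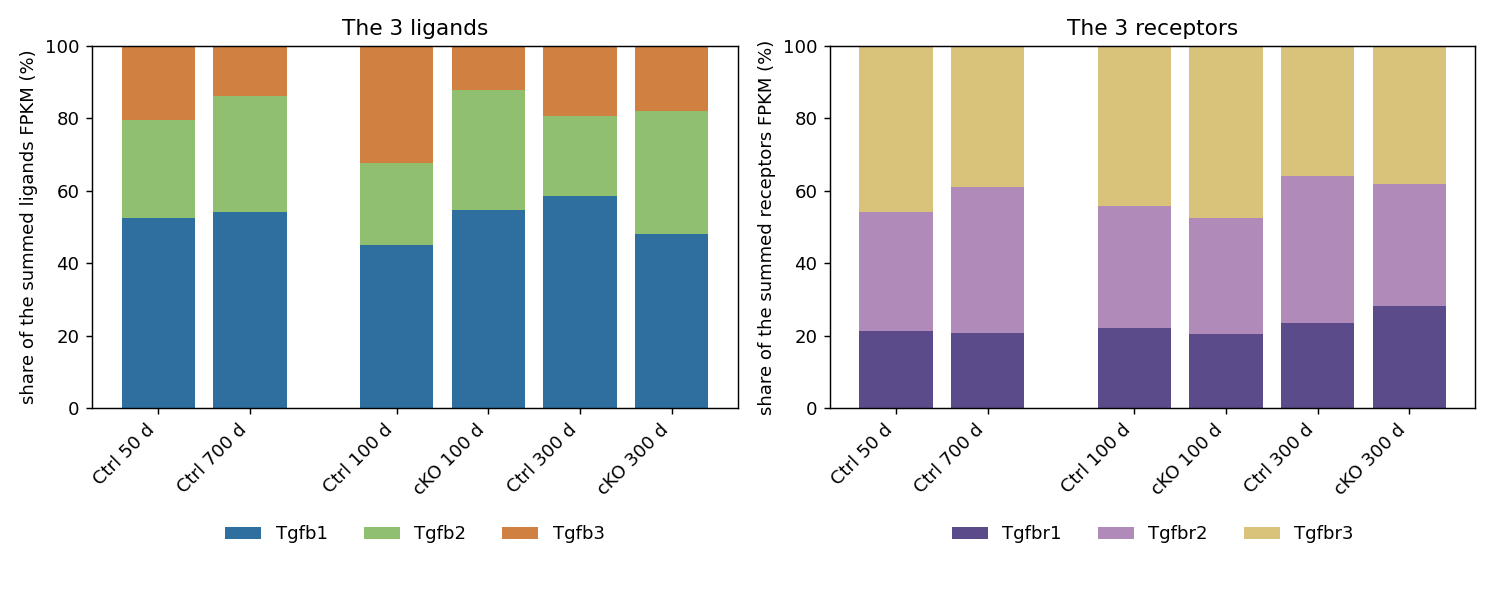
Stacked bars of the share (%) of each ligand in the summed FPKM of Tgfb1, Tgfb2 and Tgfb3 (left) and of each receptor in the summed FPKM of Tgfbr1, Tgfbr2 and Tgfbr3 (right) in the 6 groups, 1 value per group. Tgfb3 is below its 32.4% share of 100-day control skin in the other 5 groups, and Tgfb2 has a larger share in cKO than in control skin at both ages.

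In control skin of 700 against 50 days the members lay close together. Of 10 members 0 passed 2-fold, beside 3.93% of named genes, and 0 passed 1.5-fold upward or downward, beside 2.08% and 8.85%. With equal totals (TPM) that split of all named genes was 533 higher and 1145 lower, against 260 and 1107. The largest ratio was that of Tgfb3, at 1.99 FPKM at 700 days and 3.42 FPKM at 50 days, a log2 ratio of -0.57 with 9.24% of named genes below it. It passed 1.5-fold with a pseudocount of 0.1 or 0.5 in place of 1. Smad3 was 6.19 against 8.27 FPKM (-0.37) and Tgfbr3 17.7 against 22.5 FPKM (-0.33). Tgfb2 (4.58 against 4.55 FPKM), Smad7 (5.74 against 5.55 FPKM) and Tgfbi (140 against 135 FPKM) had ratios nearest to 0, at 0.01, 0.04 and 0.05.

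The members' median in this comparison was -0.11, beside -0.03 over all named genes, and the median size of their ratios was 0.15 beside 0.18. Muscle, adipocyte and gland transcripts differed far more between these groups. Skeletal muscle markers (4 genes measured) summed to 1298 FPKM at 50 and 25.6 FPKM at 700 days, adipocyte markers to 531 and 93.9 FPKM, and gland epithelium markers to 29.4 and 2.15 FPKM. Fibroblast markers summed to 695 and 420 FPKM. Their part in the Tgfb3, Smad3 and Tgfbr3 values was not tested. Tgfb3 was lower in 700-day than in 50-day controls and in cKO than in control skin at each age, though only by -0.21 at 300 days. These 3 comparisons share no samples, and in each of them the gland epithelium and adipocyte sums were lower as well. The sex-linked difference given above also has the same direction in all 3, so it cannot be told apart from age or genotype here.

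Other genes of the pathway were read from 6 lists by role. Among 16 genes that store or release latent ligand, Thbs1, an extracellular activator of latent TGF-beta, was the 1 gene higher past 2-fold in each of the 3 comparisons. Of all named genes 2.26% were higher past 2-fold at 100 days, 1.94% at 300 days and 0.632% for age. The sex-linked difference given above also has the same direction in all 3, and its part in the level of Thbs1 was not tested. Thbs1 is given here by group. Its level was 45.8 FPKM in cKO and 20.1 FPKM in control skin at 100 days (log2 ratio 1.15), 43.4 against 15.2 FPKM at 300 days (1.45), and 29.2 FPKM at 700 against 13.0 FPKM at 50 days (1.11). Going lower were Ltbp2, a microfibril protein of the latent-ligand-binding family, at 5.18 against 13.8 FPKM at 100 days (-1.26), and Nrros, which tethers latent ligand on macrophages, at 3.27 against 13.4 FPKM at 300 days (-1.75). Outside 300-day control skin, Nrros lay between 2.14 and 3.90 FPKM in every group. The macrophage sums given above were lower in the same comparison as Nrros, and its dependence on them was not tested. Fbn1, the fibrillin of microfibrils that hold the latent complex, was 9.11 FPKM at 700 and 22.2 FPKM at 50 days (-1.20). The list's medians were -0.35 at 100 days, 0.02 at 300 days and -0.09 for age.

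The lists of other receptors, Smads and inhibitors are read against the shares of all named genes past 2-fold, given above as 3.93%, 6.61% and 7.15% for the 3 comparisons, which come to about 1 gene or none in lists of this size. Of 12 other receptors and co-receptors, Nrp1, a co-receptor that also binds semaphorins, was lower past 2-fold at 100 days, at 6.16 against 13.5 FPKM (-1.01), and its row also carries a microRNA gene. Of 10 measured other Smads and partners 0 passed 2-fold in any of the 3 comparisons. Smad4, the shared partner of Smad2 and Smad3, was 76.2 FPKM in cKO against 43.8 FPKM in control skin at 100 days (0.78) and 50.1 against 61.2 FPKM at 300 days (-0.28), so its sign, like that of Smad7, was opposite at the 2 ages. Smad4 was picked out after its values were seen. Of 13 negative regulators, among them Ski, Skil and Smurf2, 0 passed 2-fold. Of 10 measured other ligands only Mstn, the myostatin of skeletal muscle, did, at 0.149 FPKM at 700 and 11.4 FPKM at 50 days (-3.44) and, in 100-day skin, 15.5 FPKM in cKO against 50.0 FPKM in control (-1.63), comparisons in which the muscle sum was lower too.

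Target genes of the pathway lay on both sides of 0 at 100 and at 300 days, with a median below 0 at each age. Of 17 such genes 3 were lower and 0 higher past 2-fold at 100 days, with a median of -0.38 beside 0.02 over all named genes. Of all named genes 4.35% were lower and 2.26% higher past 2-fold. The 3 were Postn, a matrix protein of fibroblasts, at 62.1 against 281 FPKM (-2.16), Col3a1 at 881 against 1842 FPKM (-1.06) and Fn1, fibronectin, at 44.3 against 89.9 FPKM. At 300 days 0 were lower and 2 higher past 2-fold, with a median of -0.07, beside 5.20% and 1.94% of named genes. These were Col1a1, at 544 against 170 FPKM (1.67), and Col1a2, at 545 against 242 FPKM (1.17), and both also count among the fibroblast markers. In control skin of 700 against 50 days Fn1 was the 1 target past 2-fold, at 23.5 against 48.2 FPKM (-1.01), and it was lower, as were 3.29% of named genes, while 0.632% were higher. At 100 days 4 targets were lower and 2 higher past 1.5-fold, the size that Tgfbi passed, beside 12.1% and 8.95% of named genes. The 2 higher were Lox, a collagen cross-linking enzyme (0.83), and Cdkn1a, a cell cycle inhibitor (0.81), both picked out after their values were seen. At 300 days 1 target was lower and 4 higher past 1.5-fold, beside 12.2% and 7.87%. For 700 against 50 days 4 were lower and 1 higher, beside 8.85% and 2.08%. The 6 fibroblast markers, of which Col1a1 and Col1a2 are also targets, had a median of -0.40 at 100 days and 0.47 at 300 days. They were not uniform at 300 days: Pdgfra (-0.58) and Dpt (-0.21) were lower, while Col1a1, Col1a2, Dcn (0.63) and Lum (0.31) were higher. The sum of the 6 markers was 812 FPKM in control and 660 FPKM in cKO skin at 100 days, and 734 and 1509 FPKM at 300 days, with none at 0. Their part in the target gene values was not tested.

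**Figure D4:**
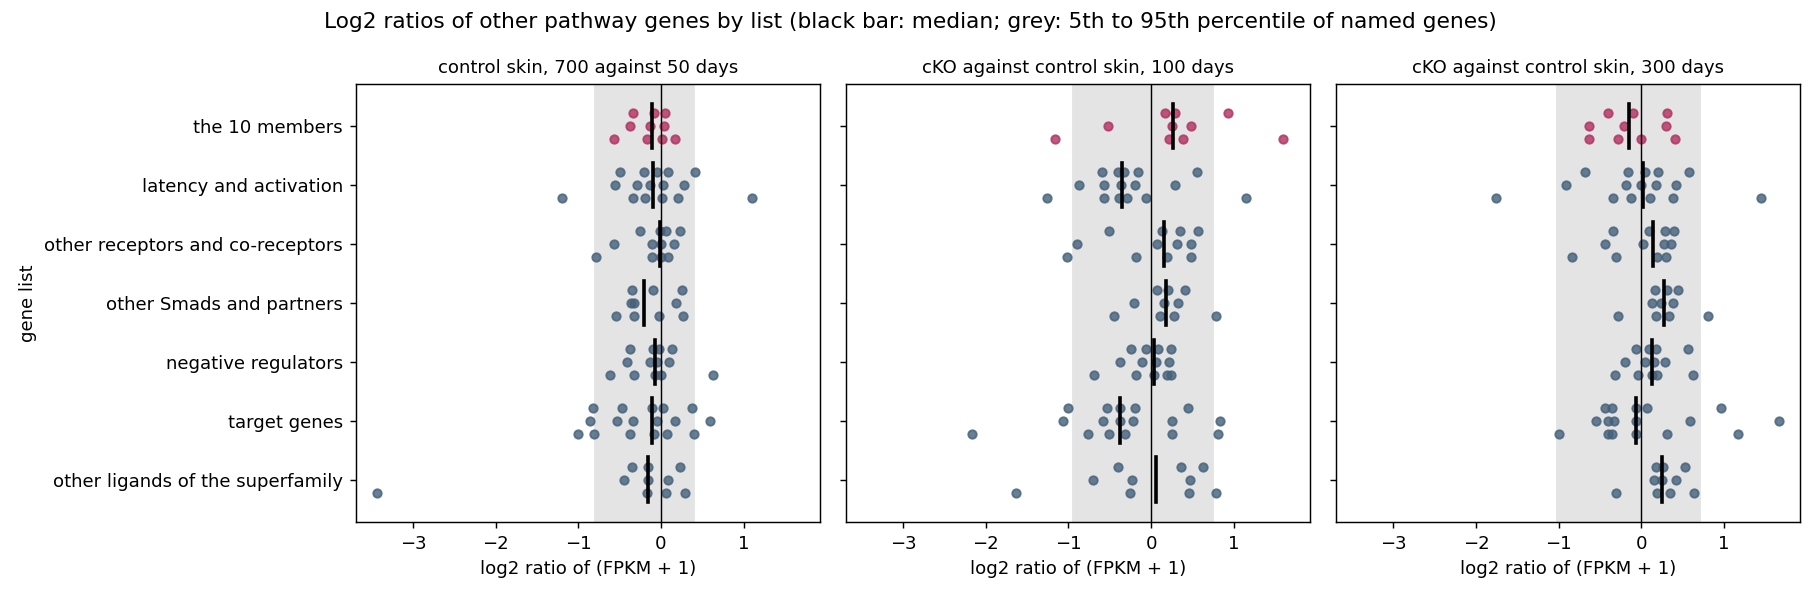
Log2 ratios of (FPKM + 1) of single genes (points) by list (rows) in the 3 comparisons that share no samples, with each list's median as a black bar and the 5th to 95th percentile of named genes in grey. Target genes have a median of -0.38 in cKO skin at 100 days, and the lowest point of the age comparison is Mstn at -3.44.

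Genes most like Smad7 were found from the distance between log2 ratios over the same 3 comparisons, among 12420 candidates. The nearest was Hist1h2bn, a histone gene, at a distance of 0.288, with ratios of 0.12 for age and -0.37 at 300 days. Prr9 had ratios of 0.02 for age, 1.36 at 100 days and -0.43 at 300 days (distance 0.308) and Fgf5, a growth factor that ends the growth phase of hair, ratios of 0.00, 1.84 and -0.82 (distance 0.312). Prr9 stood at 496 FPKM in cKO and 192 FPKM in control skin at 100 days. Fgf5 was 5.47 FPKM and 0.801 FPKM in the same groups, and Hist1h2bn 13.8 and 4.24 FPKM. In the 50- and 700-day controls Fgf5 was 0.305 and 0.306 FPKM, below the pseudocount of 1, which keeps its age ratio close to 0. Histone genes have near-identical copies that can share reads, so the value of Hist1h2bn is uncertain. Likeness over 3 values is a description of these groups.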

How the data were processed

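RNA of whole skin was sequenced in 20 mouse samples of 6 groups, taken from the source names in the labels. Per the labels' protocols, ribosomal RNA was removed with 1 of 2 kits and directional libraries were made. Per the submitters' processing notes the tools were HISAT2, Cufflinks and Cuffdiff with mm10; versions, annotation and how samples of a group were combined are not given in the sources used here. FPKM, 1 per group, is the deposited unit, so tests per sample could not be made, no p-value is given and depth is unknown.

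Rows with exactly 1 named gene (predicted, clone, Rik, microRNA and small nucleolar names and pseudogenes set aside) gave 19599 genes, 98.5% of them found in GENCODE M21, the row with the highest mean standing for a gene. Of these, 12509 had a mean of at least 1 FPKM. Ratios were log2 of (FPKM + 1), counted at 1.5-fold and 2-fold, within a title prefix. A share below a member is its percentile. Genes named were the 10 members, up to 6 genes per list past 2-fold in a main comparison, Sod2, Junb, and the 3 genes nearest to the member with the largest ratio. A target gene is not reported here and was left out of its list. Members and lists were chosen with earlier results of these data known. The computation was checked on simulated tables. The alternatives changed the pseudocount (0.1 or 0.5) and the filter (none, or an average of 5 FPKM or more), and used 3 rescalings and summed rows, and, added after seeing the data, protein-coding genes only. Python 3.11.15, numpy 2.4.6, pandas 2.3.3 and matplotlib 3.10.9 were used.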

Additional observations from a re-analysis of the deposited data

How the results depend on the processing

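Each group has 1 value, so leaving out samples was not run. No paired analysis was possible because the file holds no values per sample. With no replicate spread, a log2 ratio was taken as moved when it shifted by 0.2 or more. In the 9 alternatives no member's ratio past 1.5-fold changed sign, the sign changes being of ratios within 0.09 of 0 (Tgfbr1, Smad2, Smad3 and Tgfb2 under rescaling), and the members' medians moved by less than 0.2 in each comparison. Counts of members differed as follows. With a pseudocount of 0.1, 1 member passed 1.5-fold for 700 against 50 days (Tgfb3, 0 before), 1 passed 2-fold from 100 to 300 days in controls (0 before) and 2 passed 2-fold in the difference of genotype ratios (1 before). With a pseudocount of 0.5 the first and last of these were also 1 and 2, and with equal totals the last was 2, while 4 instead of 6 members passed 1.5-fold in that difference and 4 instead of 3 in cKO skin at 100 days. With a mean of at least 5 FPKM, which removes Tgfb3, 1 member instead of 2 passed 2-fold and 2 instead of 3 passed 1.5-fold in cKO skin at 100 days, 5 instead of 6 passed 1.5-fold in the difference, and 1 instead of 2 passed 1.5-fold from 100 to 300 days in controls. With a common median, 1 instead of 2 passed 1.5-fold in cKO skin at 300 days. Tgfb3 at 100 days ranged from -1.40 (pseudocount 0.1) to -1.15 and Smad7 from 1.52 to 1.71.

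The counts of all named genes moved more. A pseudocount of 0.1 gave 936, 1321 and 890 genes past 2-fold in place of 491 (age), 827 (cKO at 100 days) and 504 (cKO skin by age). A mean of at least 5 FPKM leaves 9012 genes in place of 12509, so its lower counts rest on a smaller set and are not shares. Past 1.5-fold were then 1741 in place of 2629 (cKO at 100 days) and 1513 in place of 2510 (cKO at 300 days). By age there were 746 in place of 1419 in control and 1135 in place of 1804 in cKO skin, and 1935 in place of 3121 in the difference. Past 2-fold, in the same order, were 547, 469, 258, 300 and 595 in place of 827, 894, 572, 504 and 1101. Equal totals put the median of all named genes at -0.10 in place of 0.02 for cKO skin at 100 days.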
